A study of Saccharomyces cerevisiae with 8 samples.

Results

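The 39 DNA replication genes of the budding yeast Saccharomyces cerevisiae were chosen from 5976 protein-coding genes among 11993 features of the deposited table. The rule went by systematic identifier and used no measured values, although earlier results of these data were known when it was set. All 39 were in the table and all passed the filter on low values. They encode the origin recognition complex (ORC1 to ORC6), the helicase loader CDC6, the helicase core (MCM2 to MCM7), the helicase activators CDC45 and DPB11, the coupling factor CTF4, polymerase alpha and primase (POL1, POL12, PRI1, PRI2), subunits of polymerases epsilon and delta (POL2, DPB2, POL3), the sliding clamp POL30, the clamp loader (RFC1 to RFC5), replication protein A (RFA1 to RFA3), the lagging-strand enzymes RAD27 and CDC9, and the enzymes of nucleotide supply (RNR1 to RNR4 and CDC21).

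The study measured how an arrest of translation elongation and the loss of Upf1, the helicase at the centre of nonsense-mediated mRNA decay, change RNA levels. All cultures were of the haploid strain BY4741, mating type a, with the alleles his3Δ1, leu2Δ0, met15Δ0 and ura3Δ0. Wild type (WT) carried these alleles alone, and the upf1 mutant also carried upf1*::kanMX4, an allele of UPF1 with the drug-resistance cassette kanMX4. Whether the mark in the label stands for a deletion of the gene is not given. Cells in rich medium (YPD) at 30 °C and an optical density of 0.5 received cycloheximide (CHX), an inhibitor of translation elongation, at 100 µg/ml, or its solvent dimethyl sulfoxide (DMSO), for 15 min. Each of the 4 groups had 2 biological replicates. P-values rest on 1 spread within groups per gene, taken over all 8 cultures. Whether the mutant was more than 1 clone is not given in the sources used here.

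As background, replication of the yeast genome starts where the origin recognition complex sits on DNA. With Cdc6 and Cdt1 it loads the Mcm2-7 ring in G1, and kinases then turn the loaded ring into a helicase with Cdc45 and the GINS complex. Polymerase alpha-primase lays primers, polymerase epsilon extends the leading strand and polymerase delta the lagging strand, and both are tethered by the ring-shaped clamp that replication factor C loads. Many of these genes are transcribed in late G1 by MBF, a factor that binds the MluI cell cycle box (MCB), while a related factor, SBF, binds the Swi4 cell cycle box (SCB). RNR3, the gene of a second large subunit of ribonucleotide reductase, is kept low by the repressor Rfx1 until DNA is damaged.

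The libraries held 9.1 M to 25.66 M recovered reads (M for 1e+06), of which protein-coding genes took 83.0% to 89.5%. NAM7, the gene of Upf1 (YMR080C), had 1901 and 3868 reads for WT under DMSO, 3300 and 4143 for WT under CHX, 134 and 96 for upf1 under DMSO, and 161 and 45 for upf1 under CHX, so every library matched its genotype label. Values are normalized read densities: reads per base of the feature, scaled per library by a factor that matched the median of the 76 small nucleolar RNAs (snoRNAs). On this scale the median tested protein-coding gene was higher by 1.55 (log2) after CHX in WT, 1.14 after CHX in upf1, 0.57 in upf1 against WT with DMSO and 0.32 with CHX. Each change is therefore also given relative to other mRNAs, after the libraries were rescaled on the median ratio of 5817 protein-coding genes (mRNA-rescaled). The median tested protein-coding gene then stood at 0.069, -0.054, -0.11 and -0.051 in these comparisons. A rescaled change of 0 is thus near, but not exactly, that of the typical mRNA. Cultures were measured in bulk, so a different share of cells in S phase and a different amount of RNA per cell cannot be told apart. A gene is called higher or lower when its limma p, adjusted over the 11700 features tested, was below 0.05.

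The MCB, with the letters ACGCGT, which read the same on both strands, was searched in the 300 bases before each start codon in the RefSeq genome of build R64. It was found in 17 of the 39 genes (43.6%), against 209 of 5957 nuclear protein-coding genes with a full window (3.5%). Of the 17, 7 had 2 copies and 10 had 1, and the 24 copies began 108 to 222 bases before the start codon. Shown here are the stretches from 250 to 101 bases before the start codon of CDC21 (2 copies), RNR3 (1 copy) and ORC4 (none), which stand at the ends of the ranking by response to CHX described further on. They lie at chrXV:467690-467839, chrIX:240809-240958 and chrXVI:868405-868554, are printed 5′ to 3′ on the coding strand, the reverse strand for all 3 genes, and have the MCB in capitals.
CDC21: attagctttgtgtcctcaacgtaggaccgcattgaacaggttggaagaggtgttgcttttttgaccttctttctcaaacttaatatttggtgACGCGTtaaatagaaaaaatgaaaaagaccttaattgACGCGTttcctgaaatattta
RNR3: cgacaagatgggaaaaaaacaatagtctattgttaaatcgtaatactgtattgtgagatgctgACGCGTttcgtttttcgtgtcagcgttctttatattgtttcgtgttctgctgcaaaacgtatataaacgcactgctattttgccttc
ORC4: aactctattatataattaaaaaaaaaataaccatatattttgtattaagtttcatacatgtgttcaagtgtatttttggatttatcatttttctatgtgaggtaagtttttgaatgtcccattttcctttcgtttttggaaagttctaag

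Windows of 30 bases with the copy nearest the start codon in capitals show the motif, on the coding strand, in genes of helicase loading and activation, of the fork and of ligation, whereas no ORC or MCM gene had a copy. They come from chrX:69122-69151 forward (CDC6), chrXII:346074-346103 reverse (CDC45), chrXVI:799099-799128 forward (CTF4), chrXIV:429902-429931 forward (POL1), chrXIV:148085-148114 forward (POL2), chrII:425944-425973 reverse (POL30), chrI:158737-158766 reverse (RFA1), chrXIV:48167-48196 forward (RFA2) and chrIV:167362-167391 reverse (CDC9).
CDC6: acgcgaggcctcACGCGTcggagtttccag
CDC45: acatatcatctaACGCGTtttaagaaattt
CTF4: ctgtttaacgcgACGCGTaataaagtttcc
POL1: cctataagtaaaACGCGTcgcgtgtatcca
POL2: agggtaaccagaACGCGTaagtttcttgca
POL30: ccaaaacgcgaaACGCGTaacttttttttt
RFA1: aggcgacaaaagACGCGTgaactaacataa
RFA2: ACGCGTtaggaaACGCGTtctttcctttat
CDC9: cttaacgcgaaaACGCGTgaaagtgaaatt

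RFA2 has its copies so close that both fall in 1 window. In CDC9 and POL30 a match to the SCB (CNCGAAA, searched on both strands) stands just upstream of the MCB, and in POL30 the matches overlap by a base. The SCB was found in 14 of the 39 windows (35.9%) against 14.7% of all windows, 4 genes had both boxes and 12 had neither. TATAAA, searched on both strands, was found in 20 windows (51.3%), near the 48.2% of all windows. The core of the Rfx1 site, GTTGCC on either strand, was found in 2 (5.1%, RNR1 and RNR3) against 7.4%. An ATG in the last 50 bases before the start codon was present in 6 (15.4%) against 19.1%, namely DPB11, POL2, DPB2, RFC5, CDC9 and RNR3. These matches are descriptions of letters and not of binding.

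**Figure D1:**
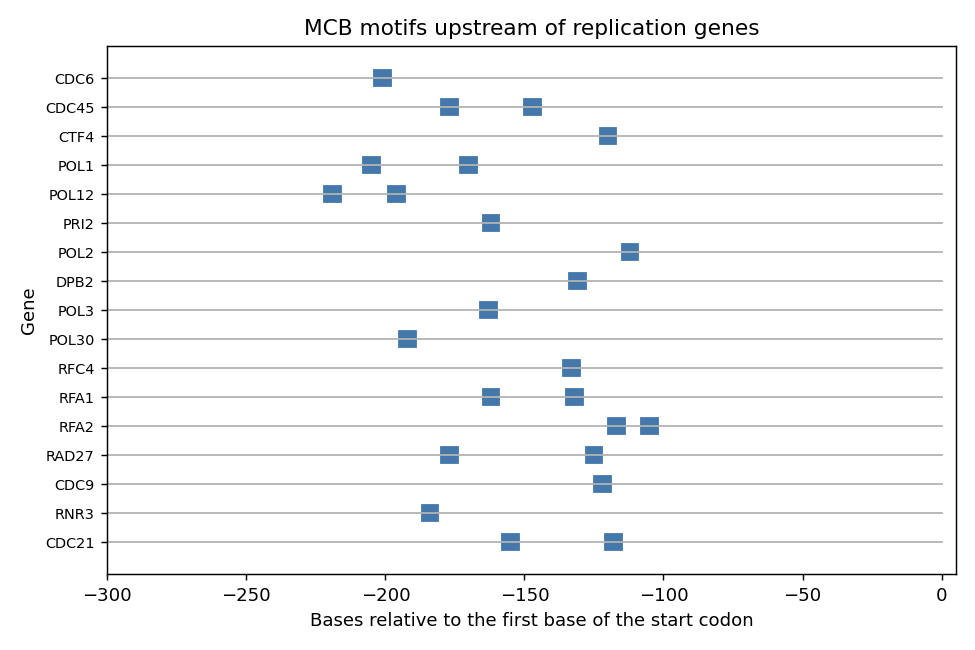
Position of each MCB (blue boxes) in the 300 bases before the start codon of the 17 genes that have one; the x axis is distance in bases from the first base of the start codon. All 24 copies begin between 108 and 222 bases before it, and 7 genes have 2 copies.

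The genes covered a wide range of levels, with 1 enzyme complex at both ends. In WT with DMSO the median density of the 39 was 0.241, close to the 0.210 of all protein-coding genes. The highest was RNR4 and the lowest RNR3, 102 times apart. With CHX in WT the medians were 0.628 and 0.678, and the members' median had passed from above to below that of all mRNAs.

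**Figure D2:**
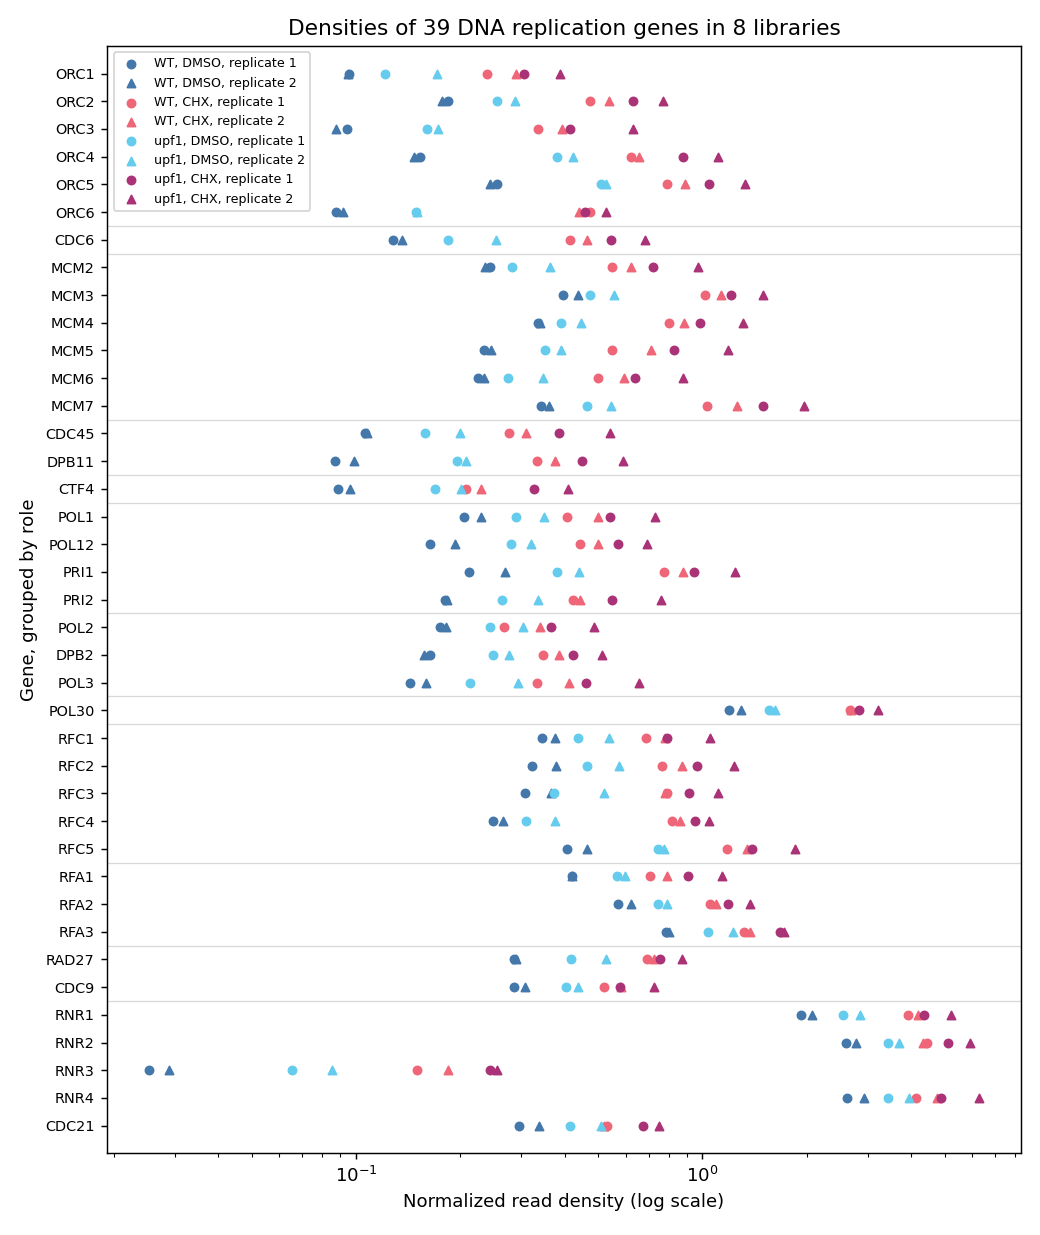
Normalized read density (log scale, x axis) of each of the 39 genes (y axis, grouped by role) in all 8 libraries; colours mark the groups, circles replicate 1 and triangles replicate 2. RNR1, RNR2, RNR4 and POL30 stand at the right, RNR3 at the left, and in every row the WT libraries with DMSO are the lowest.

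Ribonucleotide reductase makes the building blocks of DNA from ribonucleotides, with large subunits from RNR1 and RNR3 and small subunits from RNR2 and RNR4. RNR1 (YER070W, chromosome V, 298950 to 301616, forward strand) had densities of 1.92 and 2.08 for WT under DMSO, 3.93 and 4.18 for WT under CHX, 2.54 and 2.85 for upf1 under DMSO, and 4.36 and 5.22 for upf1 under CHX. RNR2 (YJL026W, chromosome X, 392404 to 393603, forward strand) had 2.60 and 2.77 for WT under DMSO, 4.44 and 4.33 for WT under CHX, 3.44 and 3.69 for upf1 under DMSO, and 5.12 and 5.93 for upf1 under CHX. RNR4 (YGR180C, chromosome VII, 855264 to 856301, reverse strand) had 2.62 and 2.93 for WT under DMSO, 4.13 and 4.75 for WT under CHX, 3.43 and 3.94 for upf1 under DMSO, and 4.89 and 6.29 for upf1 under CHX. In all 3 the groups did not overlap between treatments within a genotype. All 39 genes were called higher with CHX in both genotypes. Of all features 95% were called higher in WT and 89% in upf1, so the calls do not set them apart. RNR2 and RNR4 ran close to each other, at a ratio of 0.913 to 1.08 over the 8 libraries. RNR3 (YIL066C, chromosome IX, 238099 to 240708, reverse strand) had 0.0252 and 0.0289 for WT under DMSO, 0.150 and 0.184 for WT under CHX, 0.0655 and 0.0855 for upf1 under DMSO, and 0.244 and 0.255 for upf1 under CHX, from 69 and 146 reads in WT with DMSO to 806 and 252 in upf1 with CHX. The gap between RNR3 and its partner differed between groups: RNR1 exceeded RNR3 76.2 and 71.8 times for WT under DMSO, 26.1 and 22.7 times for WT under CHX, 38.9 and 33.4 times for upf1 under DMSO, and 17.9 and 20.4 times for upf1 under CHX. Reads in stretches that the paralogs RNR1 and RNR3 share could be lost or split in counting, which leaves the low RNR3 values less certain. CDC21, the thymidylate synthase (YOR074C, chromosome XV, 466675 to 467589, reverse strand), had 0.295 and 0.337 for WT under DMSO, 0.529 and 0.520 for WT under CHX, 0.415 and 0.510 for upf1 under DMSO, and 0.672 and 0.751 for upf1 under CHX.

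The origin recognition complex binds replication origins through its subunits Orc1 to Orc5, and Orc6 helps to recruit the helicase. ORC4 (YPR162C, chromosome XVI, 866715 to 868304, reverse strand) had densities of 0.153 and 0.147 for WT under DMSO, 0.623 and 0.657 for WT under CHX, 0.379 and 0.422 for upf1 under DMSO, and 0.879 and 1.11 for upf1 under CHX. Its 4 groups were separate, with upf1 with DMSO well above WT with DMSO. ORC6 (YHR118C, chromosome VIII, 344321 to 345628, reverse strand) had 0.0877 and 0.0916 for WT under DMSO, 0.475 and 0.439 for WT under CHX, 0.149 and 0.150 for upf1 under DMSO, and 0.458 and 0.526 for upf1 under CHX, and here both genotypes reached a similar level with CHX. Mean densities of the other 4 subunits ran in WT with DMSO from 0.0908 (ORC3) to 0.250 (ORC5) and in upf1 with CHX from 0.346 (ORC1) to 1.19 (ORC5). ORC5 lies downstream of POL2 on the same strand (chromosome XIV, POL2 ending at 154880 and ORC5 starting at 155100), so reads past the end of POL2 could count for ORC5. CDC6, the loader that works with the complex (YJL194W, chromosome X, 69338 to 70879, forward strand), had 0.128 and 0.135 for WT under DMSO, 0.416 and 0.465 for WT under CHX, 0.184 and 0.253 for upf1 under DMSO, and 0.545 and 0.681 for upf1 under CHX.

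The Mcm2 to Mcm7 proteins form a ring of 1 copy each, and their mRNAs lay within a factor of 1.82 of each other in WT with DMSO and 2.28 in upf1 with CHX. MCM3 (YEL032W, chromosome V, 86937 to 89852, forward strand) had 0.395 and 0.438 for WT under DMSO, 1.02 and 1.13 for WT under CHX, 0.472 and 0.556 for upf1 under DMSO, and 1.21 and 1.50 for upf1 under CHX. MCM4 (YPR019W, chromosome XVI, 596750 to 599551, forward strand) had 0.335 and 0.339 for WT under DMSO, 0.801 and 0.885 for WT under CHX, 0.391 and 0.446 for upf1 under DMSO, and 0.984 and 1.31 for upf1 under CHX. MCM7 (YBR202W, chromosome II, 625772 to 628309, forward strand) had 0.342 and 0.362 for WT under DMSO, 1.03 and 1.26 for WT under CHX, 0.465 and 0.546 for upf1 under DMSO, and 1.50 and 1.96 for upf1 under CHX. MCM3 was the highest of the 6 with DMSO in both genotypes and MCM7 with CHX, and MCM6 was the lowest in all 4 groups. MCM2 (YBL023C, chromosome II, 174920 to 177526, reverse strand) had 0.243 and 0.236 for WT under DMSO, 0.548 and 0.623 for WT under CHX, 0.282 and 0.364 for upf1 under DMSO, and 0.722 and 0.973 for upf1 under CHX. MCM5 (YLR274W, chromosome XII, 691555 to 693882, forward strand) had 0.234 and 0.245 for WT under DMSO, 0.547 and 0.709 for WT under CHX, 0.352 and 0.391 for upf1 under DMSO, and 0.827 and 1.19 for upf1 under CHX. The ratio of MCM7 to MCM2 was 1.40 and 1.53 for WT under DMSO, 1.65 and 1.50 for upf1 under DMSO, and 1.88 to 2.07 in the 4 libraries with CHX. CDC45, a helicase subunit (YLR103C, chromosome XII, 343989 to 345941, reverse strand), had 0.106 and 0.107 for WT under DMSO, 0.276 and 0.309 for WT under CHX, 0.159 and 0.200 for upf1 under DMSO, and 0.385 and 0.541 for upf1 under CHX. DPB11, which brings the helicase activators together (YJL090C, chromosome X, 262757 to 265051, reverse strand), had 0.0867 and 0.0985 for WT under DMSO, 0.333 and 0.374 for WT under CHX, 0.196 and 0.208 for upf1 under DMSO, and 0.449 and 0.590 for upf1 under CHX. Both lay below the median of the 39 in WT with DMSO.

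At the fork, CTF4, the hub that ties polymerase alpha to the helicase (YPR135W, chromosome XVI, 799234 to 802017, forward strand), had densities of 0.0886 and 0.0959 for WT under DMSO, 0.208 and 0.229 for WT under CHX, 0.169 and 0.201 for upf1 under DMSO, and 0.326 and 0.408 for upf1 under CHX. The 4 genes of polymerase alpha-primase and the 3 of polymerases epsilon and delta ran in WT with DMSO from 0.151 (POL3) to 0.241 (PRI1), under CHX from 0.304 (POL2) to 0.829 (PRI1), for upf1 under DMSO from 0.254 (POL3) to 0.411 (PRI1) and for upf1 under CHX from 0.426 (POL2) to 1.09 (PRI1). PRI1, the catalytic subunit of primase, was the highest of these 7 genes in every group. POL30, the clamp known as PCNA (YBR088C, chromosome II, 424990 to 425766, reverse strand), had 1.20 and 1.29 for WT under DMSO, 2.68 and 2.69 for WT under CHX, 1.55 and 1.62 for upf1 under DMSO, and 2.82 and 3.22 for upf1 under CHX, far above the polymerases it tethers. RFC5 and POL30 are convergent neighbours on chromosome II. Clamp loader means ran in WT with DMSO from 0.257 (RFC4) to 0.435 (RFC5) and in upf1 with CHX from 0.921 (RFC1) to 1.62 (RFC5), with RFC5 the highest in all 4 groups.

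Replication protein A coats single-stranded DNA with 1 copy of each of its 3 subunits. RFA3 (YJL173C, chromosome X, 96161 to 96529, reverse strand) had 0.786 and 0.802 for WT under DMSO, 1.32 and 1.37 for WT under CHX, 1.04 and 1.23 for upf1 under DMSO, and 1.68 and 1.71 for upf1 under CHX. Its mean was 1.89 times that of RFA1, the lowest of the 3, in WT with DMSO and 1.66 times in upf1 with CHX. RFA2 is the only one of the 39 genes with 2 annotated exons, and reads of unspliced and spliced RNA are not separated here. RAD27, the flap nuclease that trims Okazaki fragments (YKL113C, chromosome XI, 224727 to 225875, reverse strand), had 0.286 and 0.290 for WT under DMSO, 0.694 and 0.727 for WT under CHX, 0.416 and 0.527 for upf1 under DMSO, and 0.752 and 0.871 for upf1 under CHX. CDC9, the DNA ligase that seals them (YDL164C, chromosome IV, 164987 to 167254, reverse strand), had 0.285 and 0.308 for WT under DMSO, 0.520 and 0.580 for WT under CHX, 0.404 and 0.437 for upf1 under DMSO, and 0.577 and 0.727 for upf1 under CHX. In both, the lowest CHX library lay above the highest DMSO library of its genotype. All 39 genes were called higher with CHX in both genotypes, as were 95% of all features in WT and 89% in upf1.

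The first comparison asked how a 15 min arrest of elongation changed these mRNAs in WT. On the deposited scale 39 of 39 were higher with CHX and 0 lower, where 95% of all features tested were higher and 0.0769% lower, so the count alone does not set the list apart. The sizes of the changes differed between roles. The median change of the 39 was 1.27 (log2), -0.28 against the median of protein-coding genes, and 29 of the 39 lay below that median. Relative to other mRNAs 5 genes were higher (12.8% of the list, against 44.1% of all features and 34.9% of protein-coding genes) and 22 lower (56.4%, against 18.9% and 30.7%).

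RNR3 and the origin genes ORC6 and ORC4 led the list. ORC6 changed by 2.28 (SE 0.15, limma adjusted p = 3.28e-07) and by 0.79 (limma adjusted p = 0.000606) relative to other mRNAs. ORC4 changed by 2.06 (SE 0.16, limma adjusted p = 5.77e-07) and relative to other mRNAs by 0.55 (limma adjusted p = 0.000564). The third subunit past the threshold after rescaling was ORC3, at 0.45 (limma adjusted p = 0.0150), while ORC5 at 0.21 (limma adjusted p = 0.0576), ORC2 at -0.060 (limma adjusted p = 0.535) and ORC1 at -0.070 (limma adjusted p = 0.633) did not pass. The largest change of all 39 was that of RNR3, 2.40 (SE 0.19, limma adjusted p = 6.54e-07), with 1.01 (limma adjusted p = 0.000586) after rescaling. The pseudocount understates changes of a gene this low. DPB11 was the other gene above the mRNAs, at 0.38 (limma adjusted p = 0.00840). CDC6 changed by 1.70 (SE 0.19, limma adjusted p = 5.22e-06), with a rescaled value of 0.20 (limma adjusted p = 0.109).

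At the other end stood the genes of nucleotide supply and single-strand binding, which rose on the deposited scale but fell behind other mRNAs. RNR4 changed by 0.68 (SE 0.15, limma adjusted p = 0.00134) and by -0.86 (limma adjusted p = 5.38e-05) relative to other mRNAs. RNR2 changed by 0.71 (SE 0.13, limma adjusted p = 0.000214) and after rescaling by -0.83 (limma adjusted p = 8.47e-05). CDC21 changed by 0.72 (SE 0.16, limma adjusted p = 0.000967), or -0.80 (limma adjusted p = 0.000214) rescaled. RNR1 changed by 1.02 (SE 0.14, limma adjusted p = 2.34e-05), or -0.52 (limma adjusted p = 0.000184) rescaled. The direction of these 4 genes thus depends on the scale, and RNR3 was the only nucleotide supply gene to lie above other mRNAs. In replication protein A 3 of 3 subunits were lower relative to other mRNAs, by -0.70 (RFA1), -0.69 (RFA2) and -0.77 (RFA3), and the ligase gene CDC9 stood at -0.64.

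POL2, the catalytic subunit of polymerase epsilon, was also at the low end, with -0.76 (limma adjusted p = 0.000576) relative to other mRNAs. Between the ends, its partner DPB2 had -0.34 (limma adjusted p = 0.00815) and POL3 of polymerase delta -0.24 (limma adjusted p = 0.129). In polymerase alpha-primase POL1 and PRI2 were lower relative to other mRNAs (-0.48 and -0.28), while POL12 at -0.13 and PRI1 at 0.25 did not pass. Of the clamp loader, RFC1, RFC2 and RFC3 were lower relative to other mRNAs (-0.51 to -0.31), and RFC4 at 0.17 and RFC5 at -0.0047 did not pass. POL30 had -0.43, CTF4 -0.29 and RAD27 -0.24, all lower relative to other mRNAs. Of the helicase core MCM2, MCM3, MCM4 and MCM6 were lower by this measure (-0.28 to -0.17) and MCM5 (-0.16) and MCM7 (0.15) did not pass, nor did CDC45 (-0.085). The count of 22 fell to 14 without the first WT library with DMSO, 13 without the second, 13 without the first WT library with CHX and 15 without the second, and MCM2, MCM3, MCM4, CTF4, PRI2 and RAD27 were lost in each of these 4 fits.

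**Figure D3:**
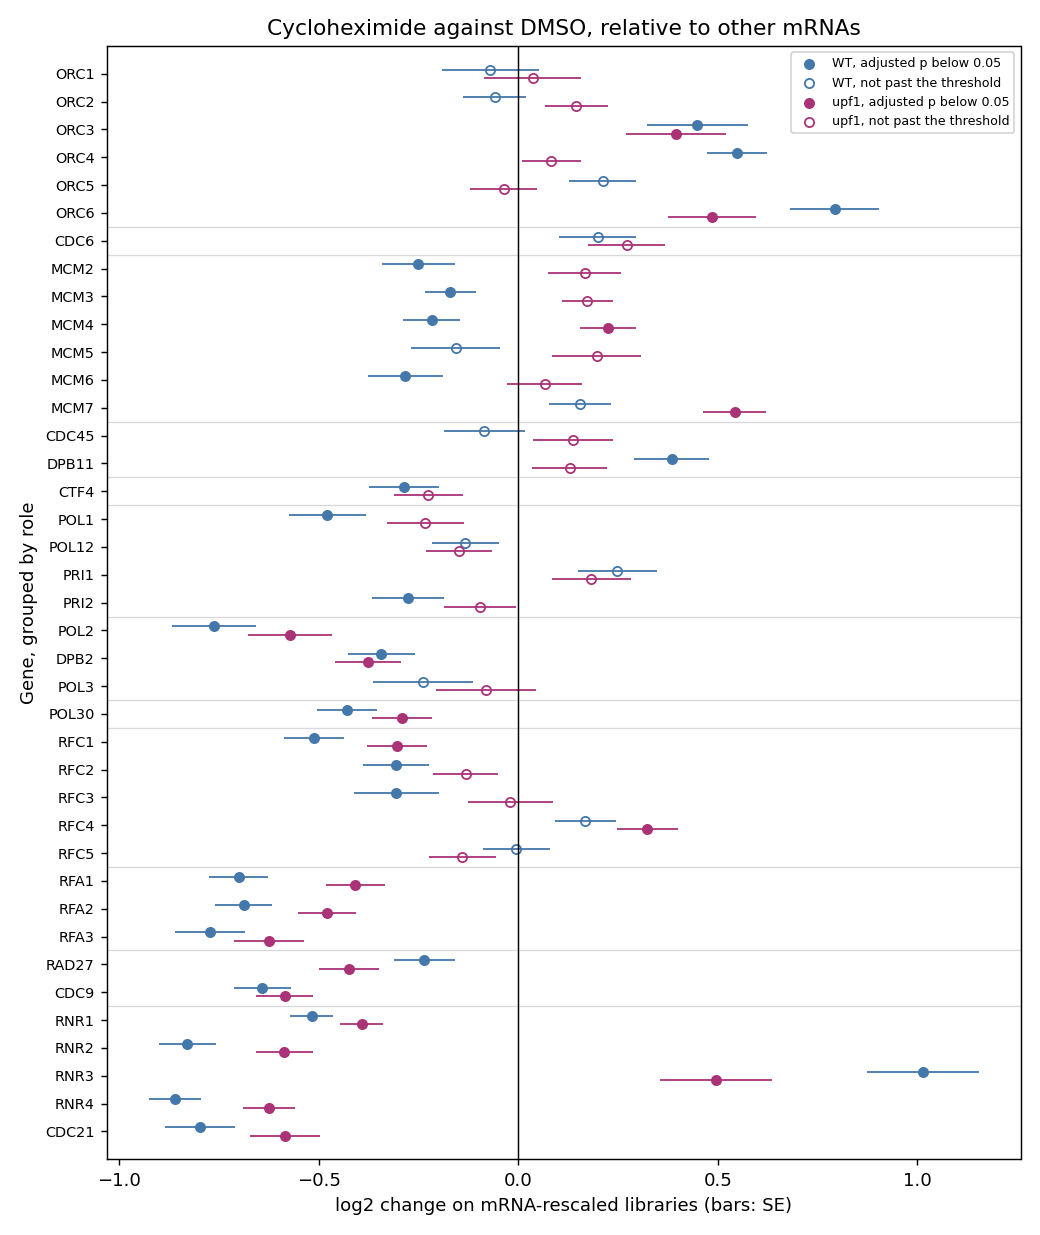
log2 change with CHX relative to other mRNAs (x axis, mRNA-rescaled, bars are SE) for the 39 genes grouped by role (y axis), in WT (blue) and upf1 (purple); filled points passed the limma threshold. ORC3, ORC4, ORC6 and RNR3 lie to the right of 0 and RFA1 to RFA3, RNR1, RNR2, RNR4 and CDC21 to the left, and the purple points of the MCM genes lie to the right of the blue ones.

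In upf1 cells CHX was likewise followed by higher densities of 39 of 39 genes and lower densities of 0, where 89% of all features were higher and 0.231% lower. The median change was 1.12, -0.020 against that of protein-coding genes. Relative to other mRNAs 6 genes were higher (15.4%, against 16.1% of all features and 22.1% of protein-coding genes) and 13 lower (33.3%, against 21.4% and 28.8%), so both shares were closer to the background than in WT. The second upf1 library lay above the first for 39 of 39 genes with CHX, by a median of 1.26 times, and for 39 of 39 with DMSO, by 1.17 times, against 35 and 32 of 39 in WT, by 1.12 and 1.06 times.

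MCM7 had the largest change, 1.75 (SE 0.17, limma adjusted p = 9.96e-06), with 0.54 (limma adjusted p = 0.00158) relative to other mRNAs. ORC6 followed with 1.68 (SE 0.15, limma adjusted p = 6.46e-06), or 0.49 (limma adjusted p = 0.0109) rescaled. RNR3 changed by 1.67 (SE 0.19, limma adjusted p = 2.30e-05), or 0.50 (limma adjusted p = 0.0270) rescaled. Also higher relative to other mRNAs were ORC3 (0.40), RFC4 (0.32) and MCM4 (0.22). CDC6 changed by 1.47 (SE 0.19, limma adjusted p = 4.28e-05), with a rescaled value of 0.27 (limma adjusted p = 0.0619). The smallest changes were those of RFA3 at 0.59 (SE 0.14, limma adjusted p = 0.00192), RNR4 at 0.59 (SE 0.15, limma adjusted p = 0.00400) and CDC9 at 0.62 (SE 0.16, limma adjusted p = 0.00377). Against other mRNAs these 3 stood at -0.62 (limma adjusted p = 0.00142), -0.62 (limma adjusted p = 0.000462) and -0.59 (limma adjusted p = 0.000819). RNR2 changed by 0.63 (SE 0.13, limma adjusted p = 0.000769) and RNR1 by 0.82 (SE 0.14, limma adjusted p = 0.000230), or -0.59 and -0.39 rescaled, both lower by that measure.

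The other 8 genes lower relative to other mRNAs were POL2, DPB2, POL30, RFC1, RFA1, RFA2, RAD27 and CDC21, with -0.59 to -0.29. The median changes of nucleotide supply and replication protein A lay -0.83 and -0.72 from the mRNA median in WT and -0.51 and -0.41 in upf1, where lagging strand maturation (RAD27 and CDC9) lay -0.44 from it after -0.47 in WT. RNR3 differed from the other nucleotide supply genes, being higher relative to other mRNAs in both genotypes. The helicase core lay -0.22 from it in WT and 0.25 in upf1, on opposite sides. The rescaled count of 6 higher fell to 2 without the first upf1 library with DMSO, 3 without the second and 3 without the first upf1 library with CHX. RNR3 was lost in each of these fits. POL2 lost its call on the deposited scale without the first upf1 library with DMSO or the second with CHX.

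Whether CHX acted differently in the genotypes was tested as the difference of its effects, upf1 minus WT. On the deposited scale 0 of 39 genes had a higher and 1 a lower effect in upf1, where 0.205% of all features were higher and 25.3% lower. Of protein-coding genes, 0.119% were higher and 15% lower. Without adjustment, at p under 0.05, the counts among the 39 were 0 and 5, and limma-voom on recovered reads also gave 0 and 5. The gene with the lower effect was ORC4, with a difference of -0.76 (SE 0.22, limma adjusted p = 0.0281). Its 2 upf1 libraries with DMSO were already at 0.379 and 0.422, against 0.153 and 0.147 in WT, so that the rise with CHX was smaller in upf1 although the level reached was higher. RNR3 had -0.74 (SE 0.27, limma adjusted p = 0.0691) and ORC6 -0.60 (SE 0.22, limma adjusted p = 0.0649), which did not pass. The call of ORC4 was lost without either WT library with DMSO, either WT library with CHX, the second upf1 library with DMSO or the first with CHX, and 2 genes passed without the first upf1 library with DMSO and 5 without the second with CHX.

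The largest positive differences were those of MCM4 at 0.13 (SE 0.24, limma adjusted p = 0.732), MCM2 at 0.11 (SE 0.26, limma adjusted p = 0.801) and MCM7 at 0.075 (SE 0.25, limma adjusted p = 0.853), none past the threshold. The CHX effect on other mRNAs was smaller in upf1 (median -0.27 over protein-coding genes). Set against them, 3 of 39 were higher, against 2.46% of all features and 4.15% of protein-coding genes, and 1 lower, against 21.6% and 13.5%. The 3 were helicase core genes: MCM4 at 0.44 (SE 0.10, limma adjusted p = 0.0173), MCM7 at 0.39 (SE 0.11, limma adjusted p = 0.0402) and MCM3 at 0.34 (SE 0.090, limma adjusted p = 0.0299). ORC4 was again the lower one at -0.46 (SE 0.11, limma adjusted p = 0.0178). The other 3 core genes had 0.42 (limma adjusted p = 0.0525) (MCM2), 0.35 (limma adjusted p = 0.145) (MCM5) and 0.35 (limma adjusted p = 0.0959) (MCM6), which missed the threshold, and all 6 differences lay between 0.34 and 0.44. These calls rest on few libraries: MCM3 was lost in each of the 8 fits without a library, MCM7 in all but that without the second WT library with CHX, and MCM4 in those without the first WT library with DMSO, the first with CHX or the second upf1 library with CHX. ORC4 was lost without the second WT library with DMSO, the first WT library with CHX, the first upf1 library with DMSO or the first with CHX.

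In rescaled densities, MCM4 had 0.706 and 0.681 for WT under DMSO, 0.587 and 0.604 for WT under CHX, 0.532 and 0.524 for upf1 under DMSO, and 0.592 and 0.645 for upf1 under CHX. MCM7 had 0.720 and 0.726 for WT under DMSO, 0.756 and 0.858 for WT under CHX, 0.632 and 0.642 for upf1 under DMSO, and 0.900 and 0.963 for upf1 under CHX, and ORC4 had 0.322 and 0.295 for WT under DMSO, 0.457 and 0.448 for WT under CHX, 0.516 and 0.496 for upf1 under DMSO, and 0.529 and 0.544 for upf1 under CHX. By this measure MCM4 in WT was at its highest with DMSO and in upf1 at its lowest with DMSO, while ORC4 was lowest in WT with DMSO and close together in the other 3 groups.

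Loss of Upf1 with DMSO alone was compared with WT. On the deposited scale 33 of 39 genes were higher in upf1 and 0 lower, where 62% of all features were higher and 0.889% lower. The 6 that did not pass were MCM2, MCM3, MCM4, MCM6, RFC1 and RFC3. The members' median of 0.57 differed from that of protein-coding genes by 0.00095. Relative to other mRNAs 5 were higher (12.8%, against 31.1% of all features and 23.3% of protein-coding genes) and 13 lower (33.3%, against 20.7% and 31.4%), so the lower share was close to that of protein-coding genes. On the deposited scale 39 of 39 had both upf1 libraries above both WT libraries, as had 80.1% of all features. The count of 33 fell to 14 without the first WT library with DMSO, 18 without the second and 12 without the second upf1 library with DMSO.

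ORC4 had the largest change, 1.39 (SE 0.16, limma adjusted p = 2.46e-05), and 0.71 (limma adjusted p = 0.000189) relative to other mRNAs. RNR3 changed by 1.31 (SE 0.19, limma adjusted p = 0.000154), or 0.71 (limma adjusted p = 0.00380) rescaled, and the upf1 libraries held 312 and 263 reads of it against 69 and 146. DPB11 changed by 1.08 (SE 0.18, limma adjusted p = 0.000323), or 0.42 (limma adjusted p = 0.00721) rescaled. The other genes higher relative to other mRNAs were ORC5 at 0.35 (limma adjusted p = 0.00927) and CTF4 at 0.29 (limma adjusted p = 0.0246). ORC4, RNR3 and DPB11 were called by this measure in every fit without a library, whereas CTF4 was lost in 4 of the 8 and ORC5 without the second WT or the first upf1 library with DMSO. Origin recognition (ORC4, ORC5), helicase activation (DPB11), fork coupling (CTF4) and nucleotide supply (RNR3) were each represented, and no complex was higher as a whole.

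The smallest changes were those of MCM3 at 0.30 (SE 0.16, limma adjusted p = 0.125), MCM4 at 0.30 (SE 0.17, limma adjusted p = 0.133) and POL30 at 0.35 (SE 0.13, limma adjusted p = 0.0350). Relative to other mRNAs they were lower, at -0.40 (limma adjusted p = 0.00146), -0.39 (limma adjusted p = 0.00259) and -0.35 (limma adjusted p = 0.00569). RNR1 changed by 0.43 (SE 0.14, limma adjusted p = 0.0181), RNR2 by 0.41 (SE 0.13, limma adjusted p = 0.0161) and RNR4 by 0.41 (SE 0.15, limma adjusted p = 0.0386), and after rescaling by -0.27, -0.29 and -0.29, so their direction also turns with the scale. CDC6 changed by 0.69 (SE 0.19, limma adjusted p = 0.00819) and by 0.015 (limma adjusted p = 0.915) rescaled. The remaining genes lower relative to other mRNAs were MCM2, MCM6, RFC1, RFC3, RFC4, RFA1 and RFA2, with -0.34 to -0.23. The rescaled count of 13 lower fell to 8 without the first WT library with DMSO, 5 without the second and 8 without the first upf1 library, and the 5 higher to 3 without the second WT or the first upf1 library with DMSO.

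**Figure D4:**
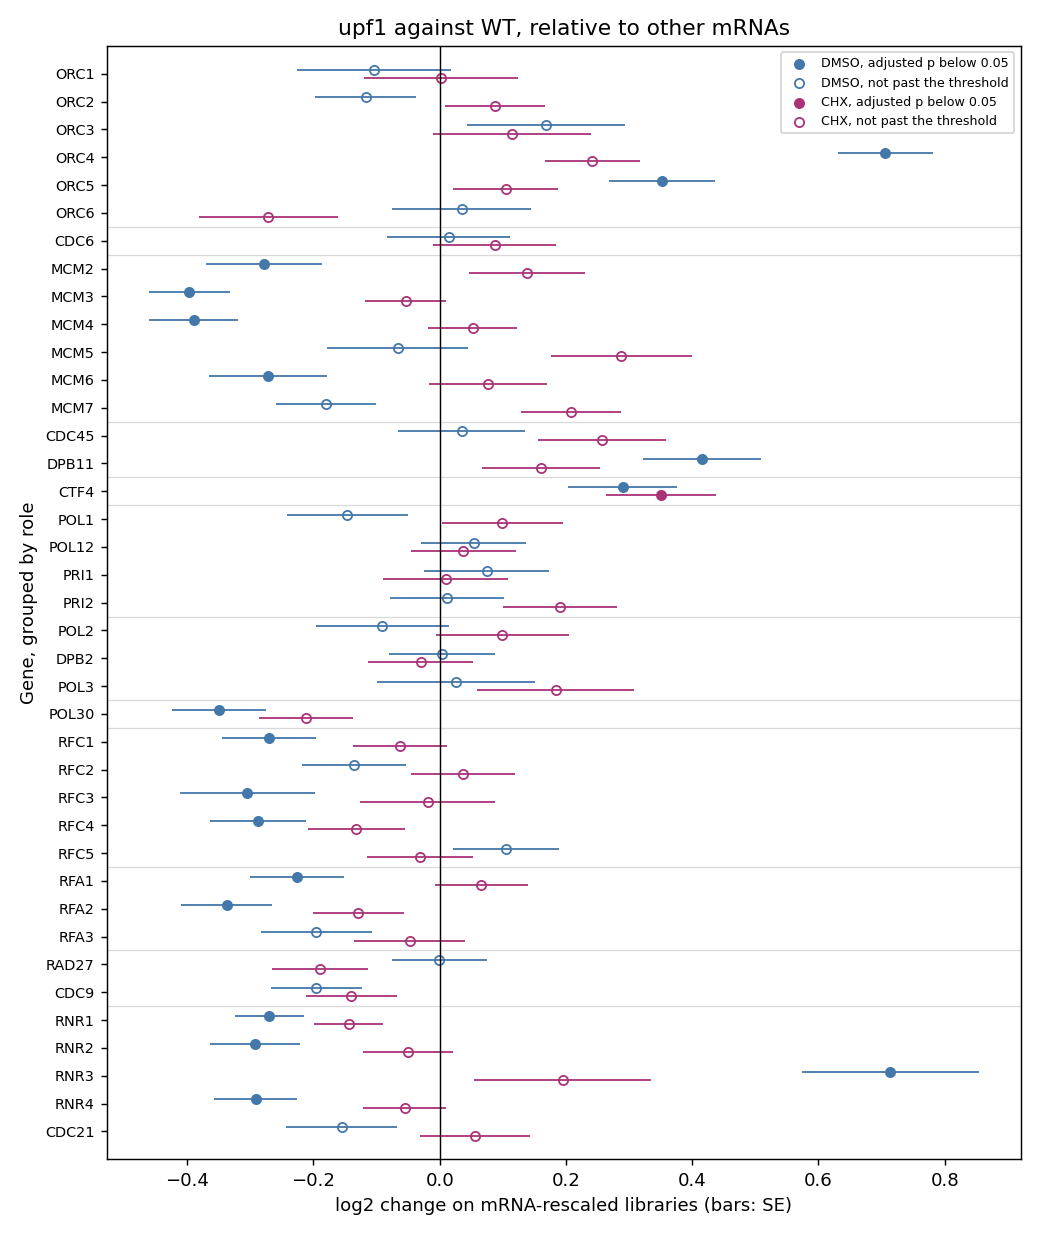
log2 change in upf1 against WT relative to other mRNAs (x axis, mRNA-rescaled, bars are SE) for the 39 genes grouped by role (y axis), with DMSO (blue) and with CHX (purple); filled points passed the limma threshold. With DMSO, ORC4 and RNR3 stand at 0.71 and MCM3 and MCM4 near -0.40 and -0.39, and with CHX only CTF4 is filled.

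The genotypes were also compared with CHX present in both. On the deposited scale 5 of 39 genes were higher in upf1 and 0 lower, where 16.5% of all features were higher and 1.44% lower. Of protein-coding genes, 19.8% were higher and 0.339% lower, and 7.6% and 11.4% relative to other mRNAs. The 5 were CTF4 at 0.73 (SE 0.17, limma adjusted p = 0.0201), MCM5 at 0.67 (SE 0.20, limma adjusted p = 0.0397), CDC45 at 0.63 (SE 0.19, limma adjusted p = 0.0456), ORC4 at 0.62 (SE 0.16, limma adjusted p = 0.0247) and MCM7 at 0.59 (SE 0.17, limma adjusted p = 0.0407). CTF4 alone was higher relative to other mRNAs, at 0.35 (limma adjusted p = 0.0358) (1 of 39, against 5.86% of all features), and 0 genes were lower (9.22% of all features), with 4 lower at an unadjusted p under 0.05. CTF4 was at 0.326 and 0.408 in upf1 and 0.208 and 0.229 in WT. The call after rescaling was lost in 7 of the 8 fits without a library, all but that without the first WT library with DMSO.

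The smallest changes were those of ORC6 at 0.10 (SE 0.15, limma adjusted p = 0.651), POL30 at 0.17 (SE 0.13, limma adjusted p = 0.364) and RAD27 at 0.19 (SE 0.16, limma adjusted p = 0.414), none past the threshold. The ribonucleotide reductase genes had 0.24 (SE 0.14, limma adjusted p = 0.234) (RNR1), 0.33 (SE 0.13, limma adjusted p = 0.0892) (RNR2), 0.57 (SE 0.19, limma adjusted p = 0.0604) (RNR3) and 0.32 (SE 0.15, limma adjusted p = 0.156) (RNR4), and CDC6 had 0.46 (SE 0.19, limma adjusted p = 0.103). None of these passed. Rescaled, they stood at -0.14, -0.050, 0.20, -0.056 and 0.087. The count of 5 became 0 without either WT library with CHX or the second upf1 library with CHX, 2 without either WT library with DMSO and 28 without the first upf1 library with CHX. Counts of 0 lower on the deposited scale were also 0 at an unadjusted p under 0.05 and with limma-voom in all 4 comparisons of 2 groups. On that scale 37 of the 39 genes had both upf1 libraries above both WT libraries, as had 52.6% of all features.

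The CHX effect in WT and the upf1 effect with DMSO share the WT libraries with DMSO, so their values are given side by side only. RNR3 had 1.01 and 0.71 relative to other mRNAs, ORC4 0.55 and 0.71, and DPB11 0.38 and 0.42. ORC6 had 0.79 and 0.035, and CTF4 -0.29 and 0.29. The first 3 genes were higher by both, ORC6 with CHX alone, and CTF4 in upf1 while lower with CHX.

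Other genes of the pathway were followed in 4 lists. Only 5897 of the 11700 features tested were protein-coding genes. Of these, 34.9% were higher and 30.7% lower relative to other mRNAs with CHX in WT. The shares were 22.1% and 28.8% with CHX in upf1, and 23.3% and 31.4% in upf1 with DMSO. For the difference, 15% were lower on the deposited scale and 13.5% after rescaling. Of 11 partners in helicase loading and activation, 11 were higher with CHX in WT on the deposited scale, where 95% of all features were, and relative to other mRNAs the list had 5 higher and 1 lower, against 44.1% and 18.9% of all features. Those 5 were SLD7, MCM10, CDC7, PSF1 and PSF2, and the lower one was TAH11, the gene of Cdt1, at -0.68 (limma adjusted p = 0.000221). In upf1 with DMSO the list had 3 higher and 0 lower by this measure, against 31.1% and 20.7% of all features. SLD7, a partner of Sld3 in helicase activation, had 1.59 (limma adjusted p = 1.18e-05), more than any of the 39. The GINS genes PSF1 and PSF2 had 0.72 (limma adjusted p = 0.000123) and 0.55 (limma adjusted p = 0.000914). The CHX effect was smaller in upf1 than in WT on the deposited scale for 4 of the 11, against 25.3% of all features. They were SLD7, with a difference of -1.04 (limma adjusted p = 0.0144), PSF1 with -0.79 (limma adjusted p = 0.0257), SLD3 with -0.70 (limma adjusted p = 0.0489) and PSF3 with -0.65 (limma adjusted p = 0.0363). Relative to other mRNAs SLD7, PSF1 and PSF2 passed this test, and SLD3 and PSF3 did not.

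Of 15 other polymerase and fork subunits, 15 were higher with CHX in WT on the deposited scale (95% of all features), with 2 higher and 4 lower relative to other mRNAs (44.1% and 18.9% of all features). The 2 were DCC1, of an alternative clamp loader, at 0.80 (limma adjusted p = 0.000896) and DPB4, of polymerase epsilon, at 0.32 (limma adjusted p = 0.00509), and TOP2, the DNA topoisomerase II, was lowest at -0.73 (limma adjusted p = 0.000343). In upf1 with DMSO the list had 6 higher and 2 lower relative to other mRNAs (31.1% and 20.7% of all features), led by DCC1 at 0.86 (limma adjusted p = 0.000728) and DPB3, a small subunit of polymerase epsilon, at 0.73 (limma adjusted p = 0.00320). POL31 of polymerase delta had 0.54 (limma adjusted p = 0.000674). Of the large subunits of the same enzymes none was called by this measure in the genotype comparison with DMSO: POL2 had -0.091 and POL3 0.025. With CHX in upf1 the list had 1 higher and 8 lower relative to other mRNAs (16.1% and 21.4% of all features).

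Of 13 genes that supply nucleotides or control ribonucleotide reductase, 13 were higher with CHX in WT on the deposited scale (95% of all features), with 3 higher and 3 lower relative to other mRNAs (44.1% and 18.9% of all features). CRT10, a negative regulator of RNR gene transcription, stood at 0.64 (limma adjusted p = 0.000393), SML1, an inhibitor of the enzyme, at 0.53 (limma adjusted p = 0.0117) and RFX1, the repressor of RNR3, at 0.49 (limma adjusted p = 0.00737). The nucleotide kinase YNK1 at -0.77 (limma adjusted p = 0.000147) and the dUTPase DUT1 at -0.52 (limma adjusted p = 0.00325) were lower relative to other mRNAs as well. In upf1 with DMSO the list had 2 higher and 6 lower (31.1% and 20.7% of all features). CRT10 had 0.94 (limma adjusted p = 6.22e-05) and the thymidylate kinase CDC8 0.52 (limma adjusted p = 0.00127), while HUG1, a small inhibitor of the enzyme that Rfx1 also represses, had -0.93 (limma adjusted p = 0.00299). HUG1 thus did not go with RNR3 in this comparison. With CHX in upf1, RFX1 had 0.90 (limma adjusted p = 0.00104) and HUG1 1.05 (limma adjusted p = 0.00275).

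Of the 6 genes of MBF, SBF and their regulators, 6 were higher with CHX in WT and 6 in upf1 on the deposited scale (95% and 89% of all features). Relative to other mRNAs the list had 2 higher and 0 lower in WT (44.1% and 18.9% of all features) and 2 higher and 0 lower in upf1 (16.1% and 21.4%). MBP1, the DNA-binding subunit of MBF, had 0.59 (limma adjusted p = 0.000547) in WT and 0.58 (limma adjusted p = 0.00131) in upf1, and SWI4, that of SBF, had -0.36 (limma adjusted p = 0.0827) and -0.059 (limma adjusted p = 0.799). In upf1 with DMSO 2 of the 6 were higher on the deposited scale (62% of all features), and STB1 alone was lower relative to other mRNAs, at -0.46 (limma adjusted p = 0.00634).

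The 17 genes with an MCB changed with CHX in WT by a median of 1.20 on the deposited scale and the 22 without by 1.36. Over all tested protein-coding genes the medians were 1.36 for 208 genes with the box and 1.56 for 5670 without. The 208 include the 17 members. The other 191 with the box had medians of 1.41 here, 1.09 with CHX in upf1 and 0.61 in upf1 against WT with DMSO. In upf1 the medians were 0.97 and 1.28 for members, and 1.08 and 1.15 for all genes. In upf1 against WT with DMSO the order was turned, 0.69 against 0.53 in members and 0.61 against 0.57 in all genes. Genes with the box stood at both ends of the list: RNR3, at the top with CHX in WT, and CDC21, near the bottom, are the sequences printed above, while ORC4 and ORC6, near the top, and RNR2 and RNR4, at the bottom, have none.

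The order of the genes by their change went with their level. To avoid a shared library, the level was taken from upf1 with DMSO and the change from WT. Spearman's rho was -0.56 over the 39 genes and -0.59 over 5897 protein-coding genes, and Pearson's r was -0.63 and -0.58, given as descriptions over genes that share libraries and depth. The values over the list were close to those over all mRNAs. Genes away from it were ORC4, whose level of 0.401 was near that of MCM4 at 0.418 while their rescaled changes were 0.55 and -0.22, and POL2, whose level of 0.274 was near that of CDC6 at 0.219 while the changes were -0.76 and 0.20. These pairs were chosen after their values were seen.

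**Figure D5:**
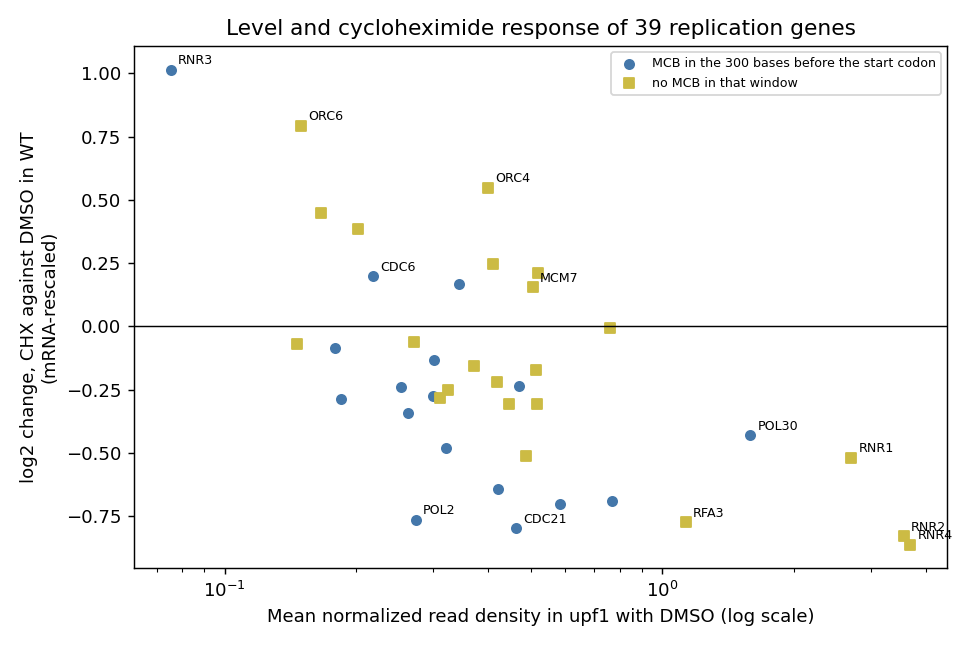
log2 change with CHX in WT relative to other mRNAs (y axis, mRNA-rescaled) against the mean normalized read density in upf1 with DMSO (x axis, log scale); each point is 1 of the 39 genes, blue circles with and yellow squares without an MCB in the 300 bases before the start codon. RNR3 is at the upper left, RNR2 and RNR4 at the lower right, and both markers are spread along the slope.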

How the data were processed

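Groups and replicate numbers came from the sample titles. The submitters' processing notes name the tools Trim Galore, DESeq2, featureCounts 2.0.0 and HISAT2 2.2.0 and the genome build R64, and, per the labels' protocols, libraries were strand-specific and depleted of ribosomal RNA. The authors deposited a signal per feature and library, a normalized read density, with group means that were not used. How the density was normalized is not given in the sources used here. All values of 11986 features were whole multiples, within 0.001 reads, of the value of 1 read, given 1 length per feature, which gave back reads and a factor per library, and the factors matched a median-of-ratios scaling on 76 snoRNAs within 0.402%.

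Densities were taken as log2(density + 0.005488), the pseudocount being the 5th percentile of values above 0. Features with a mean below it (293) were left out and 11700 tested. All 8 libraries entered 1 limma 3.58.1 model (R 4.3.3) fitted with 4 group means, which left 4 residual degrees of freedom, and a mean-variance trend. P-values were adjusted by Benjamini-Hochberg over all features in a comparison. The fit was also run on simulated counts with few changed features, the same spread in every group and no shared shift. That run does not cover unequal spread between groups or the rescaling. Sequences and motifs were read with Python 3.11.15. Replicates were separate libraries by their counts: the chi-square of their counts per feature was 3.62 (WT, DMSO), 4.17 (WT, CHX), 16.1 (upf1, DMSO) and 12.1 (upf1, CHX). The model takes 1 spread for all groups, so a gene's SE is the same in each comparison of 2 groups. A larger spread in upf1 than in WT is not modelled.

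The 39 genes and the 4 lists were chosen with earlier results of these data known. Full statistics are given, per comparison, for the 3 genes with the largest and the 3 with the smallest log2 change, for RNR1 to RNR4 and for CDC6. Further rescaled values are given for genes that passed or missed the threshold in each role. Alternatives were other pseudocounts and filters, mRNA-rescaled libraries, limma-voom on recovered reads, a replicate block, fits of 2 groups and fits without each library. The share of all features called is given for the main and the mRNA-rescaled fits only. Counts from the other fits have no background beside them.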

Additional observations from a re-analysis of the deposited data

Results flagged for a closer look

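The difference of the CHX effects, upf1 minus WT, passed limma's test of the difference itself for 4 of the 39 genes on at least 1 scale. Of all features, 0.205% were higher and 25.3% lower on the deposited scale, and 2.46% and 21.6% after rescaling. ORC4 had a difference of -0.76 (log2) on the deposited scale and -0.46 relative to other mRNAs. After rescaling, MCM3 had 0.34, MCM4 0.44 and MCM7 0.39, with deposited-scale values of 0.027, 0.13 and 0.075 that did not pass. Each effect rests on 2 libraries a group, and the upf1 pairs differed more between replicates than the WT pairs (chi-square per feature 16.1 and 12.1 against 3.62 and 4.17). The part of that spread in the differences was not tested.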

How the results depend on the processing

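After rescaling to mRNAs higher and lower were 5 and 22 with CHX in WT and 6 and 13 with CHX in upf1. They were 5 and 13 for upf1 under DMSO, 1 and 0 for upf1 under CHX, and 3 and 1 for the difference. The shift of the mRNA median was largely but not fully taken out, with 0.069, -0.054, -0.11, -0.051 and 0.027 left in that order. Of the 39 values above 0 on the deposited scale, 29 were then below 0 with CHX in WT, 22 with CHX in upf1, 24 for upf1 under DMSO and 15 for upf1 under CHX. Among the genes with full statistics these were, with CHX in WT, CDC21 -0.80, RNR2 -0.83, RNR4 -0.86 and RNR1 -0.52. With CHX in upf1 they were CDC9 -0.59, RNR4 -0.62, RFA3 -0.62, RNR1 -0.39 and RNR2 -0.59. In upf1 with DMSO they were POL30 -0.35, MCM4 -0.39, MCM3 -0.40, RNR1 -0.27, RNR2 -0.29 and RNR4 -0.29. In upf1 with CHX they were RAD27 -0.19, POL30 -0.21, ORC6 -0.27, RNR1 -0.14, RNR2 -0.050 and RNR4 -0.056. Below the deposited-scale median of protein-coding genes lay 29 of the 39 with CHX in WT and 20 with CHX in upf1. For upf1 under DMSO 19 lay below it, and for upf1 under CHX 8. A pseudocount 10 times as large moved the members' median against the mRNA median to -0.15 with CHX in WT and to 0.022 with CHX in upf1, the reversed sign. For the 5 genes higher in upf1 with CHX the count was 2 with a 10 times smaller pseudocount, 10 with a 10 times larger one, 13 with the stricter filter and 20 with limma-voom. For the difference 2, 0 and 5 were lower with the smaller pseudocount, the larger one and limma-voom. The share of all features called is not given for the other pseudocounts, the stricter filter or limma-voom. Whether those counts moved with all features is therefore open. Beyond the rescaling the cause was not tested.

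Leaving out each library gave 12 to 37 higher for upf1 under DMSO, 0 to 28 higher for upf1 under CHX and 0 to 5 lower for the difference. Rescaled counts ran from 13 to 21 lower with CHX in WT, 2 to 5 higher with CHX in upf1, 3 to 5 higher and 5 to 13 lower in upf1 with DMSO, 0 to 1 higher in upf1 with CHX, and 0 to 2 higher and 0 to 1 lower for the difference. The members' median against the mRNA median with CHX in upf1 ran from -0.080 to 0.053, on both sides of 0. Differences of the CHX effects ran from -0.12 to 0.27 for MCM7, -0.11 to 0.32 for MCM2 and -0.080 to 0.33 for MCM4. The 39 higher with CHX in WT stayed 39 in each of these fits.

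Replicate numbers were shared between groups, but same-numbered libraries did not deviate together feature by feature (correlations -0.024 to 0.076). A correlation does not see a shift of a whole library. By the median ratio of the 39 genes, the second library was the higher in every group, from 1.06 times (WT, DMSO) to 1.26 times (upf1, CHX). Whether the numbers mark a pairing is therefore not settled. With the replicate block 27 were higher in upf1 with CHX and 6 lower for the difference. The share of all features called with the block is not given on either scale. Its counts therefore cannot show whether the list differs from other features. With the block on rescaled libraries, chosen as an added alternative after seeing the data together with the rescaled fits without a library, higher and lower were 6 and 23 with CHX in WT, 5 and 14 with CHX in upf1, 5 and 13 in upf1 with DMSO, 1 higher in upf1 with CHX and 3 higher for the difference. Its log2 values equal the rescaled ones above. Low genes set the limit of depth: RNR3 had its fewest reads, 69, in the first WT library with DMSO. In the shallowest library, the second of upf1 with CHX at 9.1 M reads, it had 252.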
